A study of Homo sapiens with 4 samples.

Results

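The small nucleolar RNA (snoRNA) host genes described here are 32 of the 59384 gene names with readable counts in an RNA sequencing study of Daoy, a long-used human medulloblastoma cell line. They were chosen by name alone, as every gene called SNHG followed by a number together with GAS5, ZFAS1, DANCR and EPB41L4A-AS1. In 2 libraries (shFABP4) the cells had been infected with a virus named shFABP4, directed against FABP4, a cytosolic fatty acid binding protein, and in 2 libraries (pLKO) with the control virus pLKO (PLKO in the labels). All 4 libraries came from the same line and the genotype label is FABP4 knockdown for shFABP4 and WT (wild type) for pLKO. The number of hairpins, the time after infection and any selection are not given in the sources used here. The comparison asks which RNAs differ when FABP4 is targeted. Whether the 2 libraries of a group were grown as separate cultures is not stated, and p-values therefore reflect library-to-library spread that may be technical.

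A snoRNA host gene is transcribed and spliced like other genes, and the snoRNAs are trimmed out of its introns. Box C/D snoRNAs guide 2'-O-methylation of ribosomal RNA, box H/ACA snoRNAs guide pseudouridylation, and small Cajal body RNAs (scaRNAs) guide the same changes on spliceosomal RNAs. The spliced host RNA that is left over often begins with a pyrimidine tract, as ribosomal protein mRNAs do, is loaded with ribosomes and is broken down by nonsense-mediated decay, and several host RNAs have been studied as noncoding RNAs in cancer cells. A count per gene name therefore reports the spliced host RNA and any unspliced RNA in its exons, and not the amount of mature snoRNA.

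The shFABP4 libraries held 2539862 and 20431660 counted fragments, and the pLKO libraries held 8988961 and 13839885. shFABP4 1 stood apart from the other libraries: it was the shallowest, yet 51762 gene names had a fragment in it, against 22350 in shFABP4 2 and 23372 and 25560 in pLKO 1 and 2. Olfactory receptor genes, which these cells are not known to use, carried 6.55 fragments per kb of exon in shFABP4 1 and 0.213 to 0.354 in the other libraries. Over the tested genes, log2 CPM correlated at r = 0.544 between the shFABP4 libraries and at r = 0.987 between the pLKO libraries, with genes as the points, which are not replicates. FABP4, the targeted gene, held 14 and 0 fragments in shFABP4 1 and 2 and 1 and 6 in pLKO 1 and 2, the most in shFABP4 1. All these counts are low, and shFABP4 1 also held fragments on olfactory receptor genes. The FABP4 counts therefore do not check the knockdown label, and the part of background in them was not tested. Of the markers listed for the line, VIM, KRT8 and KRT18 were abundant in every library, while the granule neuron factor ATOH1 and the glial S100B held 0 fragments outside shFABP4 1, and 5 and 10 in it. The other epithelial markers were low outside shFABP4 1, where CDH1 and KRT5 held 0 to 2 fragments and EPCAM 2 to 15. Of the 8 neural progenitor and glial markers, 4 held 20 fragments or more in shFABP4 2 and 3 in each pLKO library. VIM had 1114 and 6412 CPM (counts scaled to the library total) in shFABP4, against 1536 and 1552 in pLKO, and KRT18 had 317 and 1935 CPM in shFABP4, against 947 and 971 in pLKO. The 6 SHH medulloblastoma markers summed to 284 and 85.6 CPM in shFABP4, against 9.12 and 9.03 in pLKO, with SFRP1 at 46.1 CPM in shFABP4 2, against 0.667 and 1.16 in pLKO. The group 3 and 4 medulloblastoma list summed to 147 and 2.40 CPM in shFABP4, against 3.67 and 3.18 in pLKO. The haematopoietic list summed to 126 and 15.6 CPM in shFABP4, against 20.6 and 17.6 in pLKO, and the adipocyte list to 77.6 and 1.17, against 0.779 and 1.66. Their part in the results was not tested.

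Among the host genes, SNHG9, SNHG25 and SNHG19, which are also the 3 shortest of those tested, lay furthest below pLKO in shFABP4. Scaled to all tested genes, SNHG9 averaged 10.3 ± 9.43 in shFABP4 and 152 ± 3.91 in pLKO (SD, n = 2 each) in normalised CPM, SNHG25 7.94 ± 8.65 in shFABP4 and 78.7 ± 8.93 in pLKO (SD, n = 2 each), and SNHG19 16.7 ± 2.16 in shFABP4 and 159 ± 6.80 in pLKO (SD, n = 2 each). SNHG29 was above both pLKO libraries in both shFABP4 libraries, and SNHG16, EPB41L4A-AS1 and SNHG4 were above them in shFABP4 2, under each of the 5 scalings tried. In bulk RNA, fewer cells with a transcript and less of it per cell cannot be told apart. With all 4 libraries, edgeR's quasi-likelihood test (two-sided, Benjamini-Hochberg adjustment over all 14735 genes tested, threshold 0.05) called 0 of the 25 host genes tested, against 0.0% of all genes. At an unadjusted p under 0.05 there were 6 host genes, against 12.3% of all genes. DESeq2 called 3 of 25 lower, with adjusted p of 0.00280 for SNHG9, 0.00320 for SNHG19 and 0.0239 for SNHG25, and over all genes it called 1.16% lower and 3.72% higher. limma-voom called 0 host genes and 0.0% of all genes.

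Because shFABP4 1 holds so many fragments outside expressed genes, 2 further views are given beside the TMM-scaled values. In the first, counts were scaled by 1008 coding genes whose expected RNA in shFABP4 1 is at least 5 times its background (high-signal CPM). In the second, the 1075 genes of any type that pass the same limit were tested among themselves, which leaves 6 host genes: GAS5, SNHG1, SNHG6, SNHG9, SNHG19 and SNHG25. Both views were chosen with results of these data known. That limit averages shFABP4 2 and both pLKO libraries, and from shFABP4 2 alone the expected RNA is 1.56 times the background for SNHG9, 2.55 for SNHG25, 2.56 for SNHG19 and 4.97 for SNHG1, under the limit of 5. These 4 genes passed only through pLKO, where they are higher than in shFABP4 2, so their values in this fit, log2 fold changes of -2.68 for SNHG9, -2.22 for SNHG25, -1.27 for SNHG19 and 0.16 for SNHG1, are given as a description with no test. SNHG6 rose by 0.60 (SE 0.12, adjusted p = 0.0336, edgeR) in that fit, whereas its log2 fold change was -0.60 with TMM scaling of all genes. GAS5 at 0.52 (adjusted p = 0.115, edgeR) did not pass. In that set 17.0% of genes were called higher and 15.4% lower, 32.5% in either direction. SNHG6 was not called without pLKO 1 (0.54, adjusted p = 0.541, edgeR) or without pLKO 2 (0.64, adjusted p = 0.439, edgeR), where 10.4% and 10.2% of the set were called, and it was called without shFABP4 1 and without shFABP4 2, where 91.0% and 79.1% were.

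**Figure D1:**
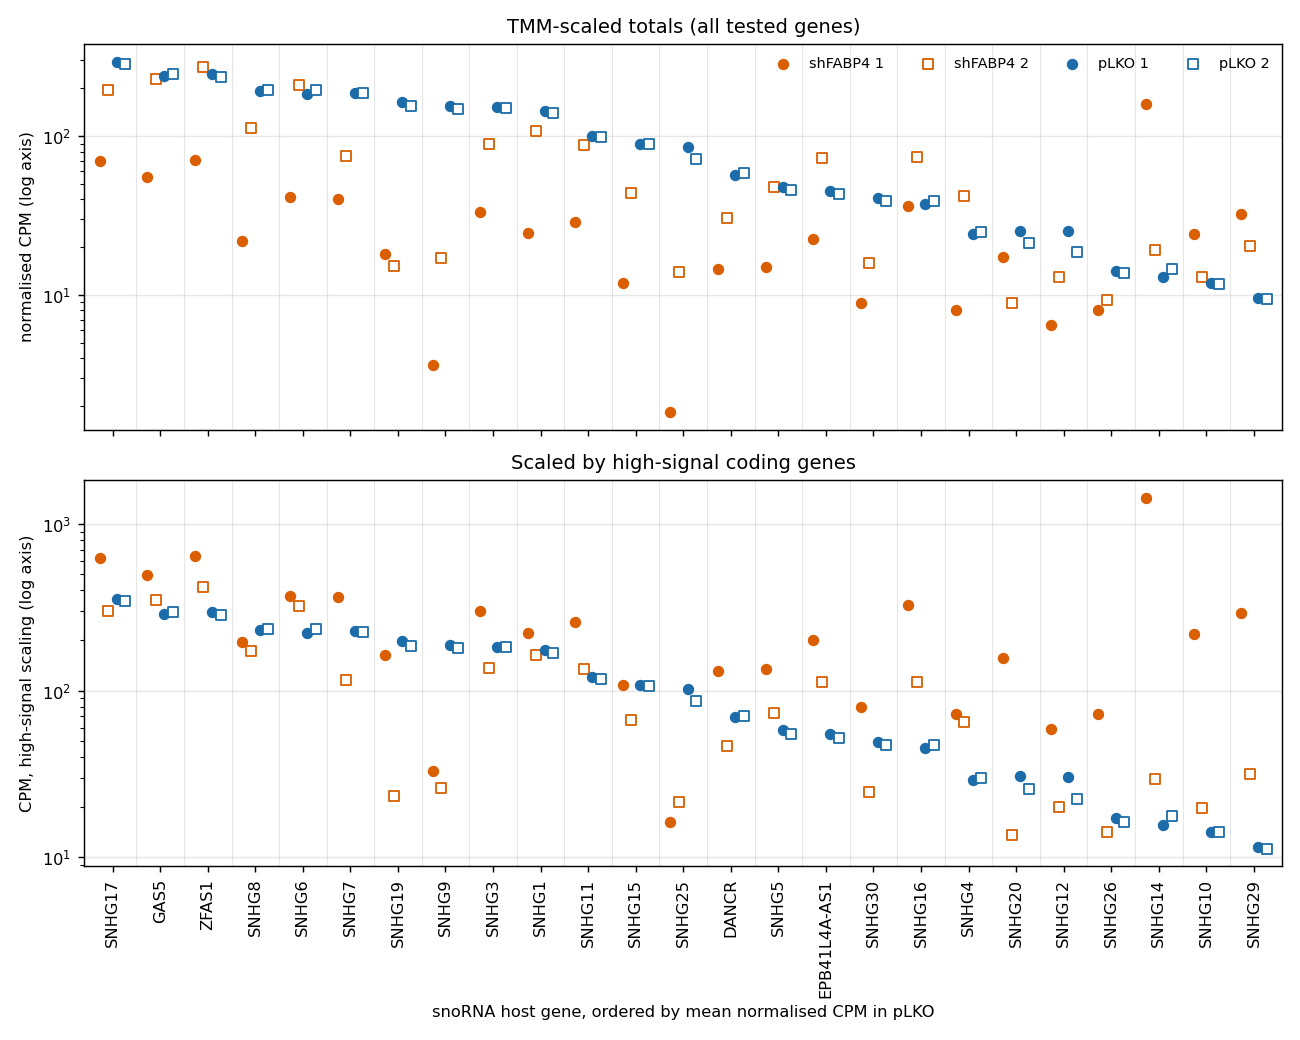
Level of the 25 tested snoRNA host genes in each library, as TMM-normalised CPM (top) and as CPM scaled by high-signal coding genes (bottom), both on log axes; each point is 1 library (orange shFABP4, blue pLKO; filled for library 1, open for library 2). The pLKO points nearly coincide for each gene, whereas the shFABP4 points often lie apart and change sides of pLKO between the panels; SNHG9 and SNHG25 lie below pLKO in both panels.

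Per kilobase of exon, the short host RNAs were the most abundant in pLKO. SNHG19 had 80.6 and 38.5 CPM per kb in shFABP4, against 352 and 329 in pLKO. SNHG25 had 9.91 and 43.8 CPM per kb in shFABP4, against 224 and 190.0 in pLKO, and SNHG9 had 10 and 26.7 CPM per kb in shFABP4, against 206 and 198 in pLKO. These 3 genes held the first 3 places among the 32 in both pLKO libraries, and SNHG25 and SNHG9 changed places between pLKO 1 and pLKO 2. SNHG6 held the fourth place in pLKO and the first in shFABP4 2, with 49.9 and 146 CPM per kb in shFABP4, against 109 and 114 in pLKO. GAS5, a host of box C/D snoRNAs first found in growth-arrested cells, held the fifth place in pLKO and the third in both shFABP4 libraries, with 17.2 and 41 CPM per kb in shFABP4, against 36.3 and 37.4 in pLKO. At the other end, SNHG14 had 1.97 and 0.136 CPM per kb in shFABP4, against 0.0780 and 0.0872 in pLKO, spread over 122609 exon bases. Summed over the 32 genes, the hosts held 3192 and 32607 fragments in shFABP4 1 and 2 and 17097 and 25733 in pLKO 1 and 2.

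SNHG9 lies on chromosome 16 (chr16:1964959-1965509, plus strand; GRCh38) and hosts the box H/ACA RNA SNORA78 in 551 merged exon bases. It held 14 and 301 fragments in shFABP4 1 and 2, against 1022 and 1508 in pLKO 1 and 2, or 3.65 and 16.99 normalised CPM in shFABP4, against 155 and 149 in pLKO. High-signal scaling gave 32.7 and 26.02 high-signal CPM in shFABP4, against 187 and 179 in pLKO. Both shFABP4 libraries lay below both pLKO libraries by a wide margin in each scaling. The log2 fold change was -3.85 (SE 0.94, edgeR adjusted p = 0.391) with all genes and -3.16 without shFABP4 1. In shFABP4 1, 10.2 of its 14 fragments are expected from background, which leaves 8.92 high-signal CPM.

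SNHG25, on chromosome 17 (chr17:64145970-64146476, plus strand), hosts the box C/D RNA SNORD104 and the box H/ACA RNA SNORA50C in 278 merged exon bases. It held 7 and 249 fragments in shFABP4 1 and 2, against 561 and 731 in pLKO 1 and 2, which is 1.82 and 14.1 normalised CPM in shFABP4, against 85.02 and 72.4 in pLKO. High-signal scaling gave 16.4 and 21.5 high-signal CPM in shFABP4, against 102 and 86.7 in pLKO. The groups did not overlap in either scaling. The fit gave -3.27 on the log2 scale (SE 1.07, edgeR adjusted p = 0.391) over all genes and -2.47 without shFABP4 1. Its 7 fragments in shFABP4 1 compare with an expected background of 5.14.

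SNHG19, also on chromosome 16 (chr16:2154797-2155358, minus strand), hosts the box C/D RNA SNORD60 in 342 exon bases, none of them shared with another gene. It held 70 and 269 fragments in shFABP4 1 and 2, against 1081 and 1557 in pLKO 1 and 2, or 18.2 and 15.2 normalised CPM in shFABP4, against 164 and 154 in pLKO. With high-signal scaling the shFABP4 libraries separated, at 164 and 23.3 high-signal CPM in shFABP4, against 197 and 185 in pLKO. shFABP4 2 lay far below pLKO under both scalings, while shFABP4 1 lay just below it under high-signal scaling. On the log2 scale the edgeR change was -3.25 (SE 0.53, edgeR adjusted p = 0.391) over all genes, -1.05 with high-signal scaling and -3.38 without shFABP4 1.

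The transcripts of SNHG9 and SNHG25, which lie below pLKO in both shFABP4 libraries under both scalings, are short enough to be shown whole, with the polyadenylation hexamer AATAAA in capitals. They are GENCODE 29 sequences of the transcripts SNHG9-201 (275 bases) and SNHG25-202 (278 bases), written as DNA, 5′ to 3′. For SNHG9 the shortest GENCODE 29 transcript was taken and for SNHG25 the longest. The count of SNHG9 covers more exon bases than the transcript shown.
SNHG9-201: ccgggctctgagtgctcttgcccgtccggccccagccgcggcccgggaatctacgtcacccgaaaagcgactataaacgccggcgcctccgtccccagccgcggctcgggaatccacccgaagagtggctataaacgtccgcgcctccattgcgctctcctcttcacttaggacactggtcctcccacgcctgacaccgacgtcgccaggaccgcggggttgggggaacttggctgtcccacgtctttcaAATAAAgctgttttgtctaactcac
SNHG25-202: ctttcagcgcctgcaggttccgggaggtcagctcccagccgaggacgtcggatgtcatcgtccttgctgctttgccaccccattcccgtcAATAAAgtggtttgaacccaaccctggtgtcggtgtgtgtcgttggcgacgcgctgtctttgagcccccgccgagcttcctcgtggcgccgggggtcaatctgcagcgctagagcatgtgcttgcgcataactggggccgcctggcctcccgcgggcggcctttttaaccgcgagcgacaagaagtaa
AATAAA on the transcript strand is present in 25.3% of the 27756 GENCODE 29 transcripts of 250 to 500 bases, and in SNHG25-202 it lies in the first part of the transcript and not near its end. SNORD104, the box C/D RNA that lies within SNHG25, is shown with its TGATGA and final CTGA runs in capitals, where a C box and a D box are expected.
SNORD104 (chr17:64146083-64146152, plus strand): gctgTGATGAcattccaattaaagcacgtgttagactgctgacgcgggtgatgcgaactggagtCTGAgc
TGATGA followed by CTGA is present in 58.6% of the 384 GENCODE 29 snoRNA transcripts of 60 to 100 bases. These matches are descriptions of the letters.

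SNHG6 and GAS5, whose RNAs carry box C/D snoRNAs, lay on the other side of pLKO from the short hosts in 1 of the 2 scalings. SNHG6, the host of SNORD87 on chromosome 8 (chr8:66921684-66926398, minus strand), held 158 and 3725 fragments in shFABP4 1 and 2, against 1221 and 1972 in pLKO 1 and 2. Scaled to all genes it had 41.2 and 210.2 normalised CPM in shFABP4, against 185 and 195 in pLKO, with shFABP4 1 below and shFABP4 2 above both pLKO libraries. With high-signal scaling both shFABP4 libraries lay above, at 369 and 322 high-signal CPM in shFABP4, against 223 and 234 in pLKO. GAS5 (chr1:173858559-173868882, minus strand) held 211 and 4056 fragments in shFABP4 1 and 2, against 1578 and 2506 in pLKO 1 and 2, or 54.97 and 229 normalised CPM in shFABP4, against 239 and 248 in pLKO. High-signal scaling placed GAS5 above pLKO in both libraries, at 493 and 351 high-signal CPM in shFABP4, against 288 and 297 in pLKO, and TMM scaling below it in both, so the direction flips with the scaling. SNHG1, which hosts SNORD22 and SNORD25 to SNORD30, held 95 and 1899 fragments in shFABP4 1 and 2, against 958 and 1416 in pLKO 1 and 2, or 24.8 and 107 normalised CPM in shFABP4, against 145 and 140.2 in pLKO. Its high-signal values overlapped between the groups, at 222 and 164 high-signal CPM in shFABP4, against 175 and 168 in pLKO.

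ZFAS1, the host of the SNORD12 family beside the antiviral gene ZNFX1, held 273 and 4861 fragments in shFABP4 1 and 2, against 1629 and 2399 in pLKO 1 and 2. It had 71.1 and 274 normalised CPM in shFABP4, against 247 and 238 in pLKO, with the 2 shFABP4 libraries on opposite sides of pLKO, and 638 and 420.3 high-signal CPM in shFABP4, against 298 and 285 in pLKO, with both above. SNHG16, the host of SNORD1A, SNORD1B and SNORD1C, held 140 and 1302 fragments in shFABP4 1 and 2, against 248 and 395 in pLKO 1 and 2. Its values were 36.5 and 73.5 normalised CPM in shFABP4, against 37.6 and 39.1 in pLKO, with shFABP4 1 just below pLKO and shFABP4 2 well above. High-signal scaling gave 327 and 113 high-signal CPM in shFABP4, against 45.3 and 46.9 in pLKO, and subtracting the expected background left 231 in shFABP4 1, still above pLKO. SNHG29, the host of SNORD49A, SNORD49B and SNORD65, held 125 and 363 fragments in shFABP4 1 and 2, against 63 and 95 in pLKO 1 and 2, or 32.6 and 20.5 normalised CPM in shFABP4, against 9.55 and 9.41 in pLKO. SNHG29 was higher in both shFABP4 libraries under TMM, library-total and high-signal scaling. Its log2 fold change was 1.48 (SE 0.50, edgeR adjusted p = 0.391) over all genes and 1.11 without shFABP4 1. SNHG5, the host of SNORD50B, held 58 and 853 fragments in shFABP4 1 and 2, against 317 and 465 in pLKO 1 and 2, or 15.1 and 48.1 normalised CPM in shFABP4, against 48.04 and 46.1 in pLKO. For SNHG5 the count in shFABP4 1 was below the 96.6 fragments expected from background, and shFABP4 2 lay at the pLKO level with TMM scaling and above it with high-signal scaling, at 73.7 high-signal CPM in shFABP4 2, against 57.9 and 55.2 in pLKO.

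Among the other box C/D hosts, SNHG26, the host of SNORD93, held 31 and 164 fragments in shFABP4 1 and 2, against 94 and 138 in pLKO 1 and 2, or 8.08 and 9.26 normalised CPM in shFABP4, against 14.2 and 13.7 in pLKO. SNHG30, the host of SNORD7, held 34 and 283 fragments in shFABP4 1 and 2, against 270 and 396 in pLKO 1 and 2, or 8.86 and 15.97 normalised CPM in shFABP4, against 40.9 and 39.2 in pLKO. Both lay below pLKO in both shFABP4 libraries with TMM scaling, and their groups overlapped with high-signal scaling. SNHG12, which hosts H/ACA RNAs and the C/D RNA SNORD99, held 25 and 231 fragments in shFABP4 1 and 2, against 167 and 189 in pLKO 1 and 2, or 6.51 and 13.04 normalised CPM in shFABP4, against 25.3 and 18.7 in pLKO. Its 25 fragments in shFABP4 1 fall under the 69.1 expected from background, and in shFABP4 2 it was lower than in both pLKO libraries. SNHG14, the long host of the SNORD115 and SNORD116 clusters in the imprinted region of chromosome 15, held 615 and 341 fragments in shFABP4 1 and 2, against 86 and 148 in pLKO 1 and 2, or 160.2 and 19.2 normalised CPM in shFABP4, against 13.03 and 14.7 in pLKO. Its 615 fragments in shFABP4 1 compare with 621 expected from background over its 122609 exon bases, and subtraction leaves 0, against 29.5 high-signal CPM in shFABP4 2 and 15.7 and 17.6 in pLKO. Its edgeR change of 2.69 on the log2 scale (SE 1.13, edgeR adjusted p = 0.392) over all genes became 0.46 without shFABP4 1.

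With TMM scaling, 10 of the 12 tested box H/ACA hosts had both shFABP4 libraries below pLKO, against 26.1% of all genes. Of the 12 tested box C/D hosts, 6 did. With high-signal scaling 3 and 2 did, against 4.76% of all genes. SNHG12 and SNHG25 count in both classes, and there was no test between the classes. GAS5, a box C/D host for which no snoRNA row was used, counts in neither. Both its shFABP4 values lay below pLKO with TMM scaling and above it with high-signal scaling. SNHG17, which hosts the SNORA71 family and had the highest count in pLKO, held 268 and 3462 fragments in shFABP4 1 and 2, against 1950 and 2891 in pLKO 1 and 2, or 69.8 and 195 normalised CPM in shFABP4, against 296 and 286 in pLKO. SNHG3, the host of SNORA73A and SNORA73B, the U17 RNAs needed for early cleavages of ribosomal RNA, held 128 and 1585 fragments in shFABP4 1 and 2, against 1002 and 1531 in pLKO 1 and 2, or 33.3 and 89.5 normalised CPM in shFABP4, against 152 and 152 in pLKO. SNHG7, the host of SNORA17A and SNORA17B, held 155 and 1332 fragments in shFABP4 1 and 2, against 1243 and 1892 in pLKO 1 and 2, or 40.4 and 75.2 normalised CPM in shFABP4, against 188 and 187 in pLKO. These 3 genes were lower in both shFABP4 libraries with TMM scaling, whereas with high-signal scaling shFABP4 1 lay above and shFABP4 2 below pLKO. SNHG8, the host of SNORA24, held 84 and 1987 fragments in shFABP4 1 and 2, against 1268 and 1981 in pLKO 1 and 2, or 21.9 and 112 normalised CPM in shFABP4, against 192 and 196 in pLKO. SNHG8 stayed below pLKO in both libraries with high-signal scaling too, at 196 and 172 high-signal CPM in shFABP4, against 232 and 235 in pLKO. SNHG15, the host of SNORA9, held 46 and 775 fragments in shFABP4 1 and 2, against 589 and 903 in pLKO 1 and 2, or 11.98 and 43.7 normalised CPM in shFABP4, against 89.3 and 89.4 in pLKO. DANCR, the host of SNORA26 and a noncoding RNA named for holding back differentiation, held 56 and 539 fragments in shFABP4 1 and 2, against 378 and 596 in pLKO 1 and 2, or 14.6 and 30.4 normalised CPM in shFABP4, against 57.3 and 59.03 in pLKO. DANCR's 56 fragments in shFABP4 1 are fewer than the 107 expected from background, and in shFABP4 2 both DANCR and SNHG15 were lower than in both pLKO libraries.

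SNHG11, the host of SNORA60 and SNORA71E, held 110 and 1565 fragments in shFABP4 1 and 2, against 659 and 992 in pLKO 1 and 2, or 28.7 and 88.3 normalised CPM in shFABP4, against 99.9 and 98.2 in pLKO. It was below pLKO with TMM scaling and above it with high-signal scaling, at 257 and 135 high-signal CPM in shFABP4, against 120.4 and 118 in pLKO. Of the 110 fragments of SNHG11 in shFABP4 1, 73.3 are expected from background. Subtraction leaves 85.7 high-signal CPM there, below pLKO, so the groups overlap. SNHG4, the host of SNORA74A and SNORA74D, held 31 and 749 fragments in shFABP4 1 and 2, against 159 and 251 in pLKO 1 and 2, or 8.08 and 42.3 normalised CPM in shFABP4, against 24.1 and 24.9 in pLKO. EPB41L4A-AS1, the host of SNORA13, held 86 and 1299 fragments in shFABP4 1 and 2, against 299 and 436 in pLKO 1 and 2, or 22.4 and 73.3 normalised CPM in shFABP4, against 45.3 and 43.2 in pLKO. In these last 2 genes shFABP4 1 lay below and shFABP4 2 above both pLKO libraries with TMM scaling, and both shFABP4 libraries lay above with high-signal scaling. With the expected background subtracted as well, EPB41L4A-AS1 stayed above in both shFABP4 libraries and the groups overlapped for SNHG4. SNHG10, the host of the scaRNA SCARNA13, held 93 and 229 fragments in shFABP4 1 and 2, against 78 and 119 in pLKO 1 and 2, or 24.2 and 12.9 normalised CPM in shFABP4, against 11.8 and 11.8 in pLKO. SNHG10 was higher in both shFABP4 libraries in each of these scalings, by little in shFABP4 2. SNHG20, the host of SCARNA16, held 67 and 157 fragments in shFABP4 1 and 2, against 168 and 215 in pLKO 1 and 2, or 17.5 and 8.86 normalised CPM in shFABP4, against 25.5 and 21.3 in pLKO, and its count in shFABP4 1 nearly equals the 63.9 fragments expected from background.

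The remaining 7 host genes did not pass the filter on low counts. SNHG27 held 109 and 13 fragments in shFABP4 1 and 2 and 0 in both pLKO libraries, and its count in shFABP4 1 was 6.96 times the 15.7 expected from background. In CPM scaled to the library total SNHG27 had 42.9 and 0.636 in shFABP4, and counts of 0 allow up to 0.334 and 0.217 CPM in pLKO (3 counts per library, counting error only). SNHG18, SNHG21, SNHG22, SNHG28, SNHG31 and SNHG32 held 4 to 35 fragments in shFABP4 1, 0 to 11 in shFABP4 2 and 0 to 6 in pLKO, and nothing is read from them.

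**Figure D2:**
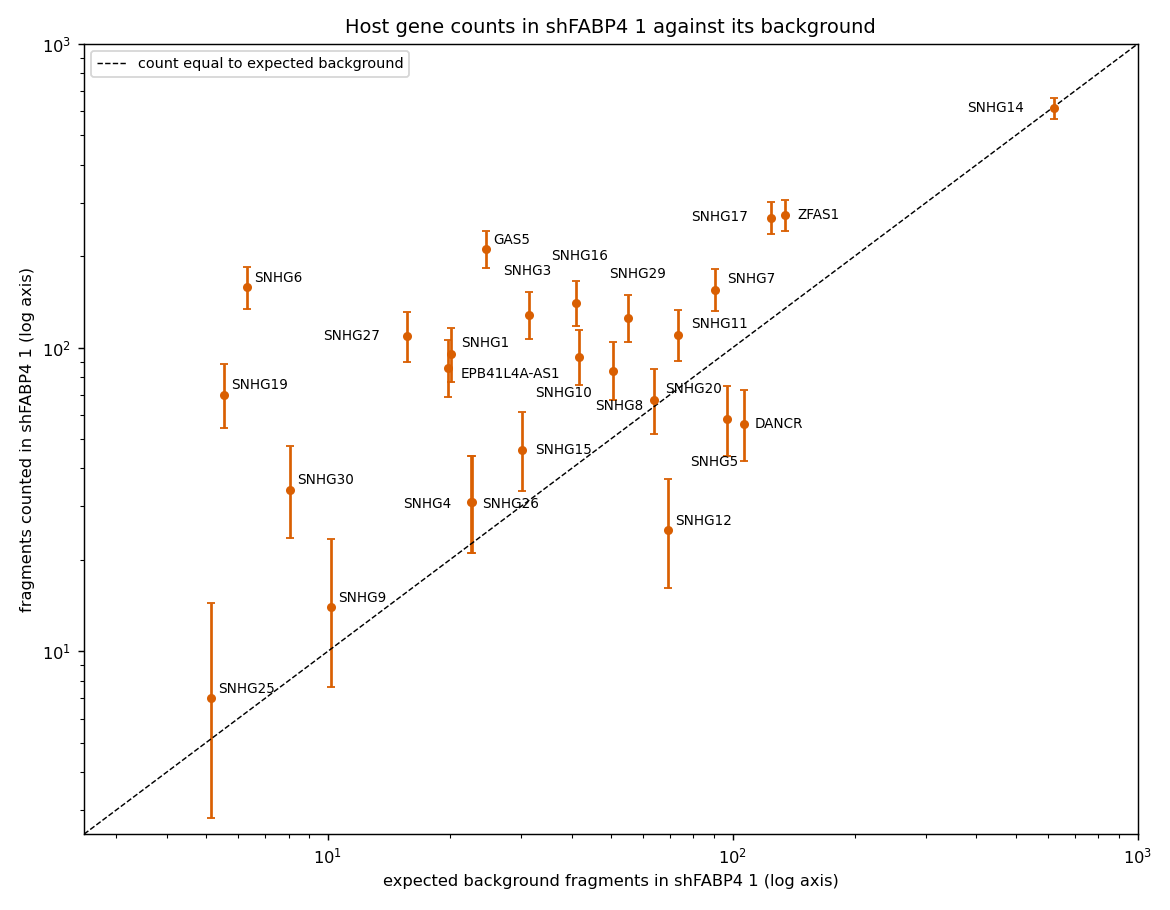
Fragments counted in shFABP4 1 against the number expected from that library's background, for the 26 host genes averaging 20 counts or more, both on log axes; bars are exact 95% Poisson intervals of the count and the dashed line marks equality. SNHG6, SNHG19 and GAS5 lie far above the line, SNHG14 and SNHG20 lie on it, and SNHG5, DANCR and SNHG12 lie under it.

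The background of shFABP4 1 was read from 2738 coding genes that held 0 fragments in each of the other 3 libraries, by GC content. It was 3.79 fragments per kb in the bin up to 40% GC and 18.5 in the bin from 60% GC. Over all 32 host genes it predicts 1926 of the 3192 fragments counted in shFABP4 1. SNHG6 held 25.01 times its expected background, SNHG19 12.6 times and GAS5 8.60 times. SNHG9 held 1.38 times and SNHG25 1.36 times, and the Poisson intervals of both counts, 7.65 to 23.5 and 2.81 to 14.4, contain the background. By these values, the counts of the 2 short hosts in shFABP4 1 could not be told from background. The pLKO libraries held 561 to 1508 fragments of them. The expected background covers all exon bases, including those that SNHG9 and SNHG25 share with other genes. Where fragments on shared bases are not counted, the background expected of these 2 hosts is lower. Whether their counts exceed such a lower background was not tested. The estimate rests on other genes of like GC content, and the true background of each host gene was not measured.

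Over the 25 tested genes, the side on which shFABP4 lay depended on the scaling. With TMM scaling, 3 host genes had both shFABP4 libraries above both pLKO libraries (SNHG10, SNHG14 and SNHG29), against 28.5% of all genes, and 16 had both below, against 26.1%. With high-signal scaling the counts were 11 above, against 58.8%, and 4 below (SNHG8, SNHG9, SNHG19 and SNHG25), against 4.76%. Subtracting the expected background from shFABP4 1 on that scale gave 7 above, against 39.6%, and 10 below, against 15.4%. The median log2 fold change of the host genes was -0.84, against 0.34 over all genes, with TMM scaling, and 0.55, against 2.33, with high-signal scaling. Relative to the median of all genes, 21 of the 25 lay under it with TMM scaling and 22 with high-signal scaling. Without shFABP4 1 the medians were -0.57 and 0.04, and 17 of 25 lay under the median of all genes. In the above-background fit with all 4 libraries, 3 of the 6 host genes lay under the median of that set and 3 over it. Those under it were SNHG9, SNHG19 and SNHG25, which passed the limit only through pLKO.

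Without shFABP4 1, the edgeR test of shFABP4 2 against both pLKO libraries called 22 of 25 host genes, 7 higher (EPB41L4A-AS1, SNHG4, SNHG6, SNHG14, SNHG16, SNHG29 and ZFAS1) and 15 lower. Over all genes that fit called 34.2% higher and 32.7% lower, and it assumes that the lone shFABP4 library varies as the pLKO pair does. SNHG29 had the largest positive value at 1.11, followed by SNHG16 at 0.93, SNHG4 at 0.79 and EPB41L4A-AS1 at 0.73. SNHG19 at -3.38, SNHG9 at -3.16 and SNHG25 at -2.47 had the largest negative values, and the next, SNHG20, was at -1.38. GAS5 at -0.09, SNHG5 at 0.04 and SNHG10 at 0.13 did not pass. Without shFABP4 2 in its place, 6 of the 31 host genes that passed the filter were called higher, against 56.6% of all genes, and 22 lower, against 29.3%. SNHG4, SNHG6, SNHG16, EPB41L4A-AS1 and ZFAS1, called higher without shFABP4 1, were among those 22.

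**Figure D3:**
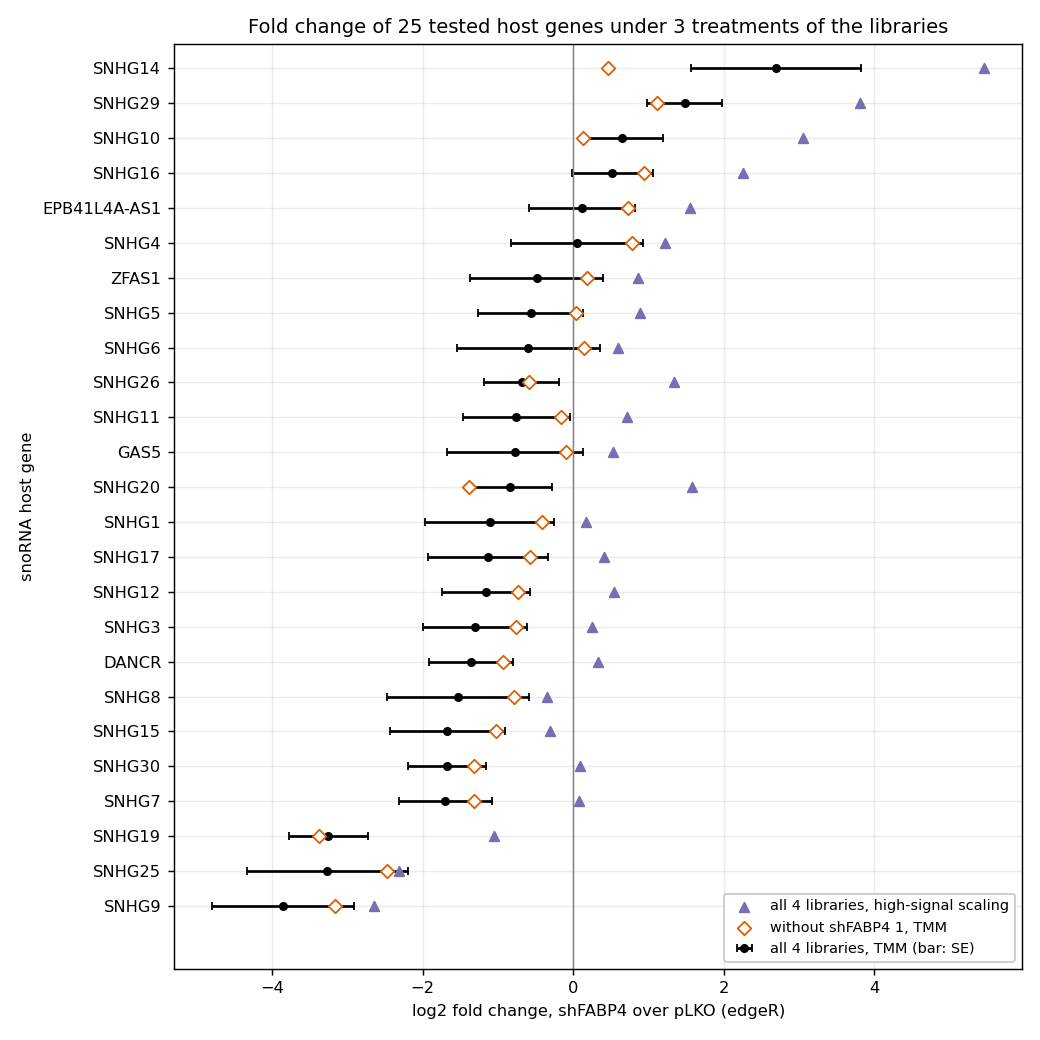
Log2 fold change, shFABP4 over pLKO, of the 25 tested snoRNA host genes from edgeR: all 4 libraries with TMM scaling (black, bars are 1 SE), all 4 libraries with high-signal scaling (triangles) and without shFABP4 1 (diamonds). SNHG9, SNHG25 and SNHG19 stand lowest in all 3, between -1.05 and -3.85, while most other genes move from the negative to the positive side under high-signal scaling.

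The host genes differ widely in exon length, and their fold changes were set beside it. SNHG25, SNHG19 and SNHG9 are the only tested hosts under 600 exon bases, and the next shortest are SNHG6 with 1247 and SNHG30 with 1594. Across the 25 genes, the log2 fold change correlated with log2 exon length at Pearson r = 0.78 and Spearman rho = 0.51 with TMM scaling, and at r = 0.66 and rho = 0.41 without shFABP4 1. Leaving out the 3 shortest genes, r was 0.58 over 22 genes with all libraries and 0.21 without shFABP4 1. With GC content the Pearson r was -0.59, and -0.31 without the 3 shortest. These correlations are across genes that share the same 4 libraries, and length and GC content also enter the background of shFABP4 1. Over all tested genes, the 531 with under 600 exon bases had a median log2 fold change of -0.15, against 0.36 for longer genes, and these 3 host genes lay far below both.

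**Figure D4:**
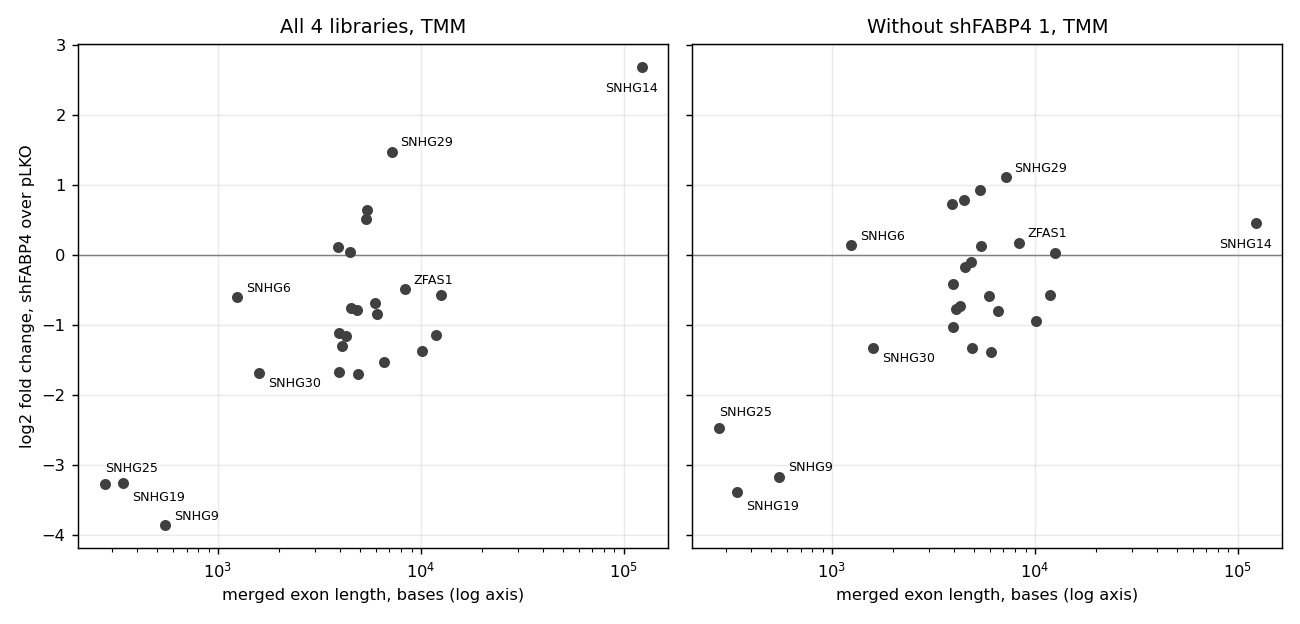
Log2 fold change, shFABP4 over pLKO, of the 25 tested host genes against merged exon length (log axis), with all 4 libraries (left) and without shFABP4 1 (right), both TMM-scaled; each point is 1 gene. SNHG25, SNHG19 and SNHG9, under 600 bases, lie lowest in both panels, and SNHG14, at the far right, drops from 2.69 on the left to 0.46 on the right.

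The fold changes were also set beside the class of hosted RNA. With TMM scaling, the 12 tested hosts of box H/ACA rows had log2 fold changes from -3.85 to 0.12 with a median of -1.33. The 12 tested hosts of box C/D rows ran from -3.27 to 2.69 with a median of -0.64, where SNHG12 and SNHG25 count in both classes and GAS5 in neither. With high-signal scaling the medians were 0.30 and 0.73, and without shFABP4 1 they were -0.78 and -0.19. The 2 tested scaRNA hosts, SNHG10 and SNHG20, had log2 fold changes of 0.65 and -0.84 with TMM scaling. The classes were not tested against each other.

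Several host genes share exon bases with a neighbour, and counting without strand cannot tell such fragments apart. EPB41L4A-AS1 shares 56.4% of its exon bases, mostly with EPB41L4A on the other strand, which itself held 41 and 15 fragments in shFABP4 and 11 and 16 in pLKO, far fewer than the host in shFABP4 2 and pLKO. ZFAS1 shares exon bases with ZNFX1 on the other strand, which held 143 and 2474 fragments in shFABP4 and 862 and 1271 in pLKO. Without shFABP4 1, ZNFX1 had a log2 fold change of 0.13 (adjusted p = 0.0513, edgeR) beside 0.18 for ZFAS1. SNHG4 shares exon bases with MATR3, a nuclear matrix protein gene on the same strand, with 184 and 3613 fragments in shFABP4 and 737 and 1060 in pLKO, and the 2 genes had log2 fold changes of 0.79 for SNHG4 and 0.92 for MATR3 without shFABP4 1. SNHG29 overlaps LRRC75A, with 90 and 25 fragments in shFABP4 and 6 and 5 in pLKO. SNHG14 overlaps SNRPN, which held 71 and 1667 fragments in shFABP4 and 1572 and 2526 in pLKO and had a log2 fold change of -1.38 without shFABP4 1, against 0.46 for SNHG14. In all, 20 of the 32 host genes share at least 10% of their exon bases with another gene, and SNHG19 shares none. SNHG25 shares 48.6%, with SNORA50C and an unnamed gene, and SNHG9 shares 23.05%, with SNORA78, and these partners held 0 fragments in every library.

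Few fragments were counted on the snoRNAs themselves, in libraries made from bead-captured mRNA. Rows for 137 snoRNAs or scaRNAs lie within 30 of the host genes, of which 91 held 0 fragments in every library, and the rows together held 191 and 132 fragments in shFABP4 and 136 and 210 in pLKO. Of the 77 rows that share bases with an exon of their host, 75 held 0 fragments in every library, and of the 60 rows that share none, 16 did; the counting command sets no option to count a fragment that falls in more than 1 gene. SNORD104, within SNHG25, was the one with the most fragments, at 1 and 104 in shFABP4, against 120 and 190 in pLKO. shFABP4 2, the deepest library, held fewer SNORD104 fragments than either pLKO library, and fragments of unspliced host RNA and of the snoRNA cannot be told apart there. SNORA74D, within SNHG4, held 0 and 18 fragments in shFABP4 and 7 and 7 in pLKO. A SNORA70 row within SNHG27 merges many loci of that name and held 62 and 4 fragments in shFABP4 and 0 and 2 in pLKO. For GAS5 and SNHG28 no hosted snoRNA row was used here.

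The start of a host gene is where its pyrimidine tract lies, and RefSeq promoters (GRCh38.p14) matched 28 of the 32 host genes by symbol. SNHG6, SNHG9, SNHG15 and SNHG25 had no match. The windows follow the RefSeq start, which for GAS5 and SNHG14 lies outside the counted gene. For these genes the window does not show the start of the counted RNA. In the window of 25 bases before to 25 after the start, the run CTTTT was present on the gene strand in 7 of these 28 (25%; SNHG5, SNHG16, SNHG19, SNHG21, SNHG26, SNHG29 and SNHG32), against 5.77% of the 35116 RefSeq promoter windows of the same length, or 9.80% on either strand. No host gene held it on the other strand alone. The 4 windows below are shown because they pair this run with different responses: SNHG16 and SNHG29 were higher and SNHG19 lower in shFABP4 2 than in pLKO, and SNHG5 was near pLKO with TMM scaling and above it with high-signal scaling. The run is in capitals.
SNHG16, chr17:76557739-76557788, plus strand: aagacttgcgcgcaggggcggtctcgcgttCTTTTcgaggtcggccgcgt
SNHG29, chr17:16438962-16439011, plus strand: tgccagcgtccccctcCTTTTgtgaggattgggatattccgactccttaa
SNHG5, chr6:85678709-85678758, minus strand: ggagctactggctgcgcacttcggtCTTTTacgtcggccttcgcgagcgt
SNHG19, chr16:2155334-2155383, minus strand: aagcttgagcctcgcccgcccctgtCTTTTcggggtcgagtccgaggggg
In SNHG19 and SNHG5 the run follows directly on the 25 upstream bases. Without shFABP4 1, the log2 fold changes of these genes were 0.93 for SNHG16, 1.11 for SNHG29, 0.04 for SNHG5 and -3.38 for SNHG19, with TMM scaling.

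As a share of all counted fragments, the 32 host genes together held 0.126% (exact 95% binomial interval 0.121 to 0.130) in shFABP4 1 and 0.160% (0.158 to 0.161) in shFABP4 2, against 0.190% (0.187 to 0.193) in pLKO 1 and 0.186% (0.184 to 0.188) in pLKO 2. The intervals cover counting error only. Both shFABP4 shares lay below both pLKO shares, with a log2 ratio of the group means of -0.40, and with 2 libraries a group an exact permutation test cannot go below p = 0.333. As a share of the high-signal coding genes plus the hosts, the values were 0.815% and 0.266% in shFABP4, against 0.306% and 0.298% in pLKO, a log2 ratio of 0.84. Without SNHG14, whose count in shFABP4 1 nearly equals the expected background, that ratio was 0.62, and with the background of the other hosts subtracted as well it was 0.085, with shFABP4 1 at 0.374%. shFABP4 2 was lower than pLKO on both bases, and shFABP4 1 changed sides. Within the summed count, SNHG19, SNHG9 and SNHG25 took 6.32%, 5.98% and 3.28% in pLKO 1 and 6.05%, 5.86% and 2.84% in pLKO 2, against 0.825%, 0.923% and 0.764% in shFABP4 2. SNHG6 and ZFAS1 took 11.4% and 14.9% of it in shFABP4 2, against 7.14% and 9.53% in pLKO 1 and 7.66% and 9.32% in pLKO 2.

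The proteins that bind, assemble and clear these RNAs were looked at as lists, and with all 4 libraries the edgeR test called 0 of 4 box C/D core proteins, 0 of 4 box H/ACA core proteins, 0 of 12 assembly factors, 0 of 22 decay factors, 0 of 56 protein-coding snoRNA hosts and 0 of 16 other long noncoding RNAs, against 0.0% of all genes. With TMM scaling their median log2 fold changes were -0.78, -0.95, -0.77, -0.72, -0.64 and 0.44, against 0.34 over all genes and -0.84 for the host genes. With high-signal scaling the medians of the same lists were 0.34, 0.45, 0.61, 1.20, 0.54 and 3.06, against 2.33 over all genes and 0.55 for the host genes, so 5 of the 6 change sign. FBL, the methyltransferase of box C/D particles, had 113 and 703 normalised CPM in shFABP4, against 794 and 787 in pLKO, and SNU13, which binds the kink of the guide RNA, had 54.2 and 425 normalised CPM in shFABP4, against 438 and 456 in pLKO. In both, shFABP4 2 lay close to pLKO and shFABP4 1 far below with TMM scaling. With high-signal scaling FBL had 1009 and 1077 high-signal CPM in shFABP4, against 956 and 942 in pLKO, with both shFABP4 libraries above, and SNU13 had 486 and 652 high-signal CPM in shFABP4, against 527 and 546 in pLKO, with the groups overlapping. DKC1, the pseudouridine synthase, had 11.7 and 37.98 normalised CPM in shFABP4, against 58.95 and 50.4 in pLKO, and its partner NOP10 had 62.5 and 463 normalised CPM in shFABP4, against 815 and 828 in pLKO, with both shFABP4 libraries below pLKO with TMM scaling. High-signal scaling kept NOP10 below, while DKC1 overlapped at 105 and 58.2 high-signal CPM in shFABP4, against 71.04 and 60.4 in pLKO. Of the assembly factors, the chaperone HSP90AB1 had 77.9 and 371 normalised CPM in shFABP4, against 1639 and 1628 in pLKO, and SHQ1, which holds DKC1 during assembly, had 11.98 and 13.4 normalised CPM in shFABP4, against 6.52 and 7.63 in pLKO. The decay factors with the smallest p were MAGOH, of the exon junction complex, with 4.17 and 4.12 normalised CPM in shFABP4, against 18.5 and 19.3 in pLKO, and the helicase DHX34, with 72.4 and 42.6 normalised CPM in shFABP4, against 209.6 and 210.2 in pLKO. HSP90AB1 stayed below and SHQ1 above pLKO in both shFABP4 libraries with high-signal scaling, and the groups overlapped for MAGOH and DHX34.

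Protein-coding snoRNA hosts carry guides in the introns of genes for ribosomal and other housekeeping proteins. Of these, PPAN, a ribosome biogenesis factor, had 6.77 and 16.9 normalised CPM in shFABP4, against 132 and 127 in pLKO, and PRRC2A had 34.9 and 38.3 normalised CPM in shFABP4, against 229 and 238 in pLKO. With high-signal scaling PPAN stayed below pLKO in both shFABP4 libraries, and the groups overlapped for PRRC2A. Without shFABP4 1, the protein-coding hosts divided into 28 called higher and 21 lower of 56, against 34.2% higher and 32.7% lower over all genes, with a median log2 fold change of 0.12, while the 25 noncoding hosts had 7 higher and 15 lower with a median of -0.57. The 2 kinds of host were not tested against each other. Of the other long noncoding RNAs, MIR22HG had 28.4 and 23.99 normalised CPM in shFABP4, against 3.64 and 4.85 in pLKO, and TUG1 had 20.3 and 30.1 normalised CPM in shFABP4, against 7.88 and 8.62 in pLKO. Both were higher in both shFABP4 libraries, with log2 fold changes of 2.62 and 1.61 over all genes (adjusted p = 0.391 each, edgeR) and 2.46 and 1.86 without shFABP4 1.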

How the data were processed

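RNA was sequenced from Daoy cells in 4 libraries, 2 shFABP4 and 2 pLKO, grouped by their titles. TRIzol extraction, bead capture of mRNA and Tn5 fragmentation were used, per the labels' protocols. The submitters' processing notes list FastQC, HISAT, StringTie and the build GRCh38. The authors deposited whole-number counts, which are fragments over GENCODE 38 exons summed by gene name in featureCounts v2.0.0 with no strand option, per the file headers, so overlapping genes cannot be separated and loci of 1 name are merged. Depth was 2539862 to 20431660 fragments, and 7 lines without readable counts were left out.

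Host genes were matched by name, and these members, the lists and the tests were chosen with earlier results of these data known. CPM, positions and exon lengths come from the deposited count table. Gene type and GC content come from GENCODE 29, which matched 67.2% of gene names and all 32 hosts. The test was edgeR 4.0.16 (R 4.3.3), a two-sided robust quasi-likelihood F test with TMM scaling, after a low-count filter (count 10, total 15), adjusted over the whole tested table (Benjamini-Hochberg, 0.05), and it was tried on simulated data. Common biological variation was a coefficient of 0.683. Alternatives were RLE, upper-quartile, library-total and high-signal scaling, no low-count filter, each library left out, the replicate number as a block, DESeq2 1.42.0, limma-voom 3.58.1, subtraction of the background of shFABP4 1 and, added later, above-background genes and the summed share without SNHG14. Counts of the pLKO pair differed beyond sampling noise, with a chi-square of 2.06 per degree of freedom over 15446 genes, so both were kept. Deviations of same-numbered libraries from their group means correlated at 0.0106, so the numbers were not taken as pairs. The labels name no batch. Members with a mean of at least 20 counts are described one by one, and of each list the 2 genes with the smallest p. Not every gene that overlaps a host gene is reported here.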

Additional observations from a re-analysis of the deposited data

How the results depend on the processing

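With RLE or upper-quartile scaling, limma-voom or the replicate number as a block, 0 host genes were called, as with all 4 libraries and TMM scaling; the replicate block called 28 of 14735 genes (0.19%). DESeq2 called 3 of 25 host genes, against 4.88% of all genes. The above-background fit called SNHG6, against 32.5% of its 1075 genes. SNHG9 and SNHG25 pass the limit of that fit only through pLKO, so no call of theirs is counted. Fits with 1 library left out leave a lone library in 1 group, and the number of host genes called depended on which library it was. Among the above-background genes, the calls of such fits include SNHG9, SNHG25 and SNHG19. These passed the limit only through pLKO, so their calls are not counted here. The number of host genes with both shFABP4 libraries above both pLKO libraries is given with the share of all genes in brackets. It was 3 with TMM scaling (28.5%), 11 with high-signal scaling (58.8%) and 7 with background subtracted as well (39.6%). It was 5 with library totals (43.3%) and 6 of 32 without the filter (13.6%). Against the lone pLKO library, it was 6 of 31 without pLKO 1 (24.1%) and 7 of 31 without pLKO 2 (24.8%). The lone shFABP4 library was above both pLKO libraries for 9 of 25 without shFABP4 1 (47.5%). Without shFABP4 2 the number was 8 of 31 (63.7%). The number below was 16 with TMM scaling (26.1%), 4 with high-signal scaling (4.76%) and 10 with background subtracted as well (15.4%). Against the lone pLKO library, it was 16 of 31 without pLKO 1 (17.1%) and 16 of 31 without pLKO 2 (17.2%). The lone shFABP4 library was below both pLKO libraries for 16 of 25 without shFABP4 1 (44.1%). Without shFABP4 2 the number was 23 of 31 (33.8%). The log2 ratio of the summed share was -0.40, 0.84 as a share of high-signal genes plus hosts, -0.79 with background subtracted, -0.53 without SNHG14 and -0.58 to -0.24 with 1 library left out.

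Directions turned as follows, with no host gene called under the scalings named. High-signal scaling gave positive log2 fold changes for SNHG20 (1.58), SNHG26 (1.34), SNHG5 (0.88), ZFAS1 (0.86), SNHG11 (0.72), SNHG6 (0.60), SNHG12 (0.55), GAS5 (0.53), SNHG17 (0.40), DANCR (0.34), SNHG3 (0.25), SNHG1 (0.17), SNHG30 (0.094) and SNHG7 (0.076). Library totals did so for SNHG20 (0.38), SNHG26 (0.29), ZFAS1 (0.14) and SNHG5 (0.11). SNHG4, at 0.05 with TMM scaling, was at -0.021 with RLE scaling, -0.023 with DESeq2, -0.0065 without the filter, -0.27 with limma-voom and -0.38 with the replicate block. EPB41L4A-AS1, at 0.12, was at -0.33 with limma-voom and -0.12 with the block. The above-background fit gave 0.52 for GAS5, 0.16 for SNHG1 and 0.60 for SNHG6, and with 1 library left out 0.30 to 0.73 (0.48 without pLKO 1), -0.02 to 0.36 and 0.53 to 0.67 (0.54 without pLKO 1 and 0.64 without pLKO 2). With all genes and 1 library left out, values ran from -3.35 to -0.09 for GAS5, -3.73 to -0.41 for SNHG1, -3.41 to 0.14 for SNHG6, -2.97 to 0.18 for ZFAS1, -2.83 to 0.037 for SNHG5, -2.80 to 0.79 for SNHG4, -2.18 to 0.73 for EPB41L4A-AS1, -1.28 to 0.93 for SNHG16 and -0.16 to 0.18 for SNHG10. The cause was not tested. SNHG9, SNHG25 and SNHG19 were negative under every alternative in which they were fitted. Of the 330 single-gene values under the alternatives, 48 turned and the remaining ones kept their direction.

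The depth of shFABP4 1 limits what can be read there: 0 fragments allow up to 1.18 CPM in it and 0.147 CPM in shFABP4 2, and 1926 of the 3192 host gene fragments in shFABP4 1 are expected from background.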
